A study of Homo sapiens with 12 samples.

Results

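The 33 genes described here encode the nucleotide excision repair machinery and the enzymes that refill and seal the gap it leaves. They form a pathway list, chosen by function with earlier results of these data known, and all 33 were found among the 54261 genes of the total RNA count table. Of these, 32 had enough counts for testing. The levels were compared between HCT116oxR, a line selected from HCT116 in oxaliplatin raised stepwise between 0.1 and 5 µmol/L with the last dose kept for 1 year, and its parent HCT116, a human colorectal carcinoma line. Each line gave 3 total RNA libraries from cultures grown and harvested separately. As HCT116oxR is 1 selected line, every p-value refers to variation among cultures, and other resistant lines were not sampled. Whether HCT116oxR was harvested in the presence of the drug is not given in the sources used here.

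Nucleotide excision repair removes bulky DNA lesions, among them the intrastrand crosslinks formed by platinum drugs. Damage is found either across the genome by XPC and its partners, with help from the UV-DDB complex, or at a stalled RNA polymerase II by the Cockayne syndrome proteins. The TFIIH complex then opens the duplex, XPA and the single-strand binding protein RPA hold it open, and the nucleases ERCC1-XPF and XPG cut on either side of the lesion. Polymerases loaded by RFC and PCNA fill the gap and a DNA ligase seals it. In platinum chemotherapy ERCC1 has been studied widely as a marker of response.

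Library totals were 11950069 to 13558077 counts, and Pearson's r across genes was 0.993 to 0.994 within a line and 0.969 to 0.9705 between the lines (log2(CPM + 1), where CPM is a gene's count scaled to a common library size after TMM normalisation). Of the 7 colorectal epithelial markers 6 were tested. The summed level was 3694 to 3778 CPM in HCT116oxR and 3073 to 3182 CPM in HCT116, while VIL1 was near 0. The markers did not all move alike. The log2 fold change of HCT116oxR over HCT116 was 0.53 for KRT18, 0.51 for CDX2, 0.42 for KRT8 and 0.25 for EPCAM. It was 0.08 for CDH1 and -0.13 for KRT19. Of 5 blood markers 3 (PTPRC, CD3E and HBB) had no counts in any library and the summed level was at most 0.522 CPM in HCT116oxR and 0.505 CPM in HCT116. The 6 fibroblast markers summed to 46.6 to 51.7 CPM in HCT116oxR and 55.2 to 68.3 CPM in HCT116, most of it from COL1A1, and the 3 endothelial markers to 2.36 to 3.21 CPM in HCT116oxR and 1.59 to 2.10 CPM in HCT116. What part these differences have in the members' values was not tested.

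More members fell than rose in HCT116oxR, and the falls were modest. Of the 32 members tested, 11 fell, 1 rose and 20 did not pass the test (edgeR quasi-likelihood test, Benjamini-Hochberg adjusted over all genes, threshold 0.05). Among all 17511 genes tested 21.8% were called lower and 22.3% higher, against 34.4% and 3.13% of the members. Libraries of the 2 lines did not overlap for 14 members, 12 of them lower and 2 higher in HCT116oxR. That is 43.8% of the members, beside 50.5% of all genes. The median log2 fold change was -0.08 over the members and -0.00 over all genes, and the median absolute change was 0.11 over the members against 0.27 over all genes. The members had more counts than most genes, and so a smaller counting error, with a median log2 CPM of 5.79 against 4.09 for all genes tested.

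None of the 32 tested members changed by as much as 2-fold, and of the called members ERCC1 was the 1 that fell by at least 1.5-fold. Of all genes tested 7.52% were called lower by at least 1.5-fold, and 3.83% by at least 2-fold. Together the 33 members held 0.310% to 0.315% of the counts of the HCT116oxR libraries and 0.334% to 0.343% of those of the HCT116 libraries. The share of ERCC1 within the members' counts was 2.60% to 2.73% in HCT116oxR and 3.91% to 4.25% in HCT116.

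**Figure D1:**
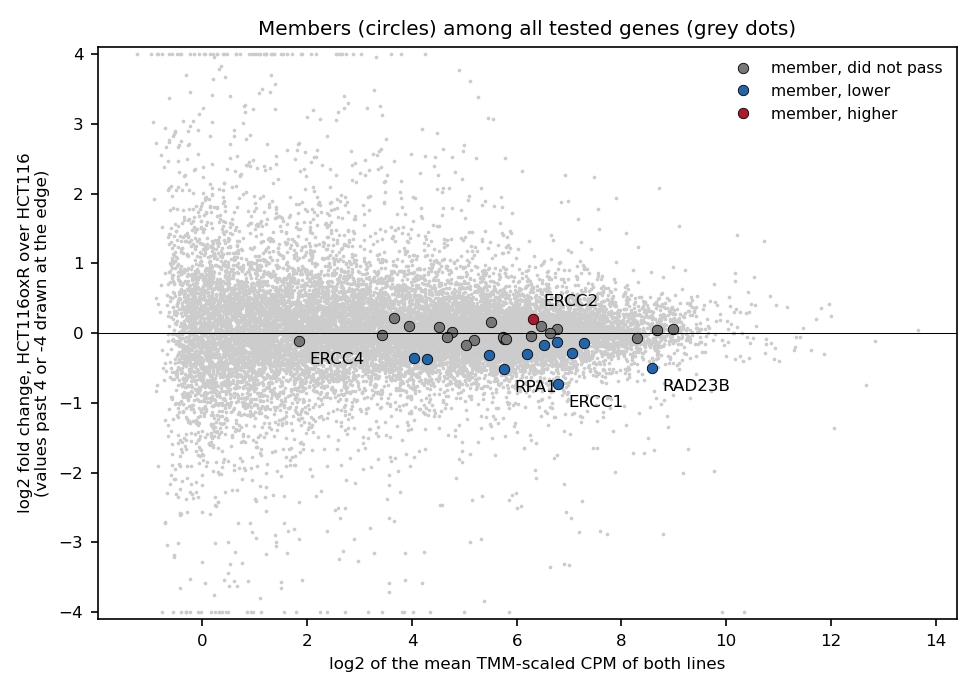
Log2 fold change of HCT116oxR over HCT116 (vertical axis, values past 4 or -4 drawn at the edge) against the log2 of the mean TMM-scaled CPM of both lines (horizontal axis), with all 17511 tested genes as grey dots and the 32 tested members as circles coloured by call. The members lie between -0.73 (ERCC1) and 0.21.

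The sequences shown first are the stretches around the annotated starts of 4 members, because these genes carry the contrasts described in the rest of the text: ERCC1, the member that fell most, ERCC2, its close neighbour and the single member that rose, and RAD23B and RPA1, which fell together with the genes around them. Each is read 5′ to 3′ on the gene's own strand in RefSeq on GRCh38.p14 and holds 250 bases before and 50 after the outermost annotated start. Capitals mark GGGCGG (the GC box bound by Sp and KLF factors) and CCAAT (the box bound by NF-Y) on either strand, with boxes that overlap or adjoin each other run together. The ERCC1 window is chr19:45451498-45451797 on the minus strand, the ERCC2 window chr19:45370524-45370823 on the minus strand, the RAD23B window chr9:107283029-107283328 on the plus strand and the RPA1 window chr17:1829755-1830054 on the plus strand.
ERCC1: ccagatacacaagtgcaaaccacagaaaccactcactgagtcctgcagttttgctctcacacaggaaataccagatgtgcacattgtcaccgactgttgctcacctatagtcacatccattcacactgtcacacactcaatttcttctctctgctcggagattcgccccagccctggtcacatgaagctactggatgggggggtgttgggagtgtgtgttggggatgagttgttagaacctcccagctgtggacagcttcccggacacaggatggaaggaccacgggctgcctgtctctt
ERCC2: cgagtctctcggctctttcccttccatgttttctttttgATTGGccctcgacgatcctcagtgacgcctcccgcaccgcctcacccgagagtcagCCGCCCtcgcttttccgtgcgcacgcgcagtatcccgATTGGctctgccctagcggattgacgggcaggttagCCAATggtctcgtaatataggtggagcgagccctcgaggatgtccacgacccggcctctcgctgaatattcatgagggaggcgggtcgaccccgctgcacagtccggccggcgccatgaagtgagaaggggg
RAD23B: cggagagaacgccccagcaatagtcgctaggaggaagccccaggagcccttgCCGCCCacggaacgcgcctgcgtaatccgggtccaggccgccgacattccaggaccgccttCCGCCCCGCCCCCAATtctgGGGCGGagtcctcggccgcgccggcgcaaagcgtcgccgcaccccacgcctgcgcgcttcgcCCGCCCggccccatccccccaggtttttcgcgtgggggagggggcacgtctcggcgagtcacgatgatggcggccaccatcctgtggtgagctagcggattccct
RPA1: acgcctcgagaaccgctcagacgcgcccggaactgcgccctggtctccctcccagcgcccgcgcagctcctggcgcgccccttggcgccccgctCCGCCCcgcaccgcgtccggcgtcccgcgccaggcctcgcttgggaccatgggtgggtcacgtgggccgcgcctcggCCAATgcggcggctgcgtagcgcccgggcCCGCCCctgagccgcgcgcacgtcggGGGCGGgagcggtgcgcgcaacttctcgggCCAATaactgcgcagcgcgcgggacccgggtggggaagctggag

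The RAD23B window held 5 GC boxes and 1 CCAAT box, that of RPA1 3 and 2, and that of ERCC2 1 and 3. The ERCC1 window held neither, nor any of the other motifs searched, and which of the annotated ERCC1 starts the reads came from was not determined. Promoters of 31 members were in the RefSeq table. A GC box was present in 25 of these 31 (80.6%), against 58.5% of 15843 promoters of protein-coding genes, and a CCAAT box in 13 of 31 (41.9%), against 36.4%. The ETS motif CCGGAAG was present in 8 of 31 (25.8%, against 14.2%), the E2F motif TTTCCCGC in 3 (XPC, PCNA and LIG1, against 2.18%) and TTTGGCGC, also an E2F motif, in 1 (POLE, against 0.890%). The CRE TGACGTCA was found in 1 (RFC1, against 2.59%) and the AP-1 motif TGANTCA in 1 (GTF2H1, against 5.75%). GCGCATGC, a part of the NRF1 motif, was found in 1 (ERCC6, with 2 overlapping matches, against 4.26%). All motifs were searched on both strands, and a match describes the letters only. The comparison promoters were not limited to genes tested here, whereas the members had more counts than most tested genes, so the 2 sets are unlike.

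**Figure D2:**
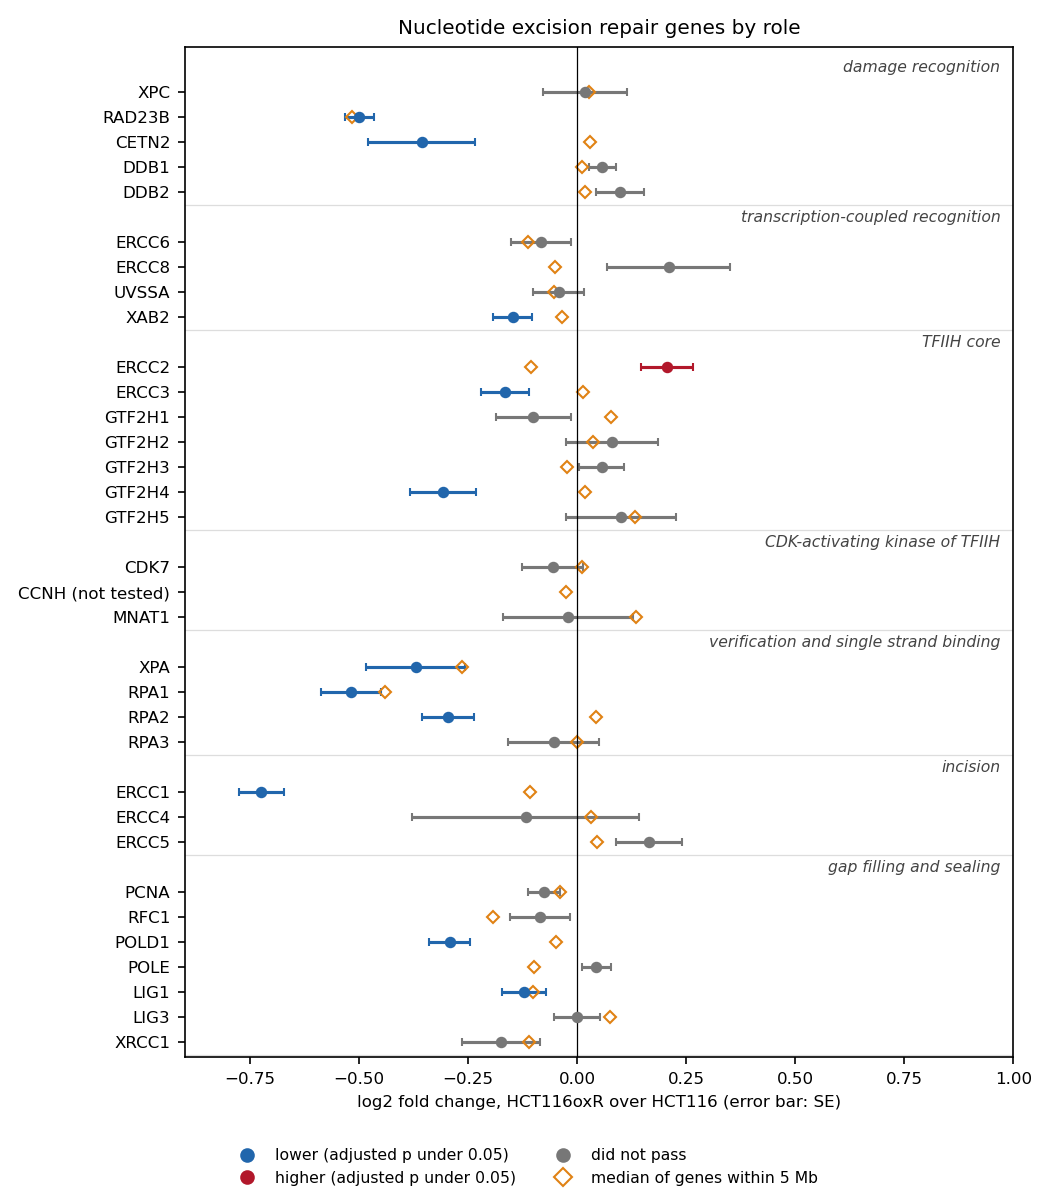
Log2 fold change of HCT116oxR over HCT116 (horizontal axis, circles with SE) for each member by role, with open diamonds for the median of the other tested genes within 5 Mb. ERCC1 lies lowest at -0.73, far left of its diamond, whereas RAD23B, RPA1 and XPA lie close to theirs. For RAD23B this depends on the window, as its median within 1 Mb was -1.10, well below its own -0.50. Within 1 Mb the medians were -0.39 for ERCC1, -0.53 for RPA1 and -0.41 for XPA.

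Among the factors that recognise damage across the genome, the XPC partners fell and XPC itself did not pass the test. RAD23B, which binds and stabilises XPC, measured 321, 319 and 317 CPM in HCT116oxR libraries 1 to 3, against 434, 462 and 457 CPM in HCT116. All 3 HCT116oxR values lay below all HCT116 values, a fall of 0.50 ± 0.03 on the log2 scale (SE, adjusted p = 1.42e-27), or 29.3%. CETN2, the centrin that completes the XPC complex, measured 14.4, 14.5 and 14.3 CPM in HCT116oxR and 16.3, 20.3 and 18.9 CPM in HCT116. Its libraries did not overlap either (-0.36 ± 0.12, adjusted p = 0.0122), but the call was lost without HCT116 replicate 2 (-0.29, adjusted p = 0.0913).

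XPC, which senses the distorted duplex, measured 26.3, 29.1 and 26.2 CPM in HCT116oxR against 26.9, 27.2 and 26.5 CPM in HCT116. The groups overlapped, and the interval of the log2 fold change was -0.17 to 0.21. The 2 UV-DDB genes, whose proteins flag lesions that XPC binds poorly, did not pass either. DDB1, also an adaptor of the CUL4 ubiquitin ligases, averaged 517 ± 4.99 CPM in HCT116oxR and 497 ± 12.1 CPM in HCT116 (SD, n = 3 each, log2 fold change 0.06, adjusted p = 0.131). For DDB2, the damage-binding subunit and a p53 target in human cells, the means were 91.1 ± 4.58 CPM in HCT116oxR and 85.1 ± 2.72 CPM in HCT116 (0.10, adjusted p = 0.155). With upper quartile scaling DDB1 passed as higher (0.08, adjusted p = 0.0258).

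Of the 4 genes of transcription-coupled recognition, 1 fell and 3 did not pass, beside 21.8% of all genes tested that were called lower. XAB2, which binds XPA and stalled polymerase and also takes part in splicing, measured 144, 151 and 147 CPM in HCT116oxR against 168, 155 and 167 CPM in HCT116. Every HCT116oxR value was lower, by 9.76% in the fit (-0.15 ± 0.04, adjusted p = 0.00354). ERCC6, the gene of the CSB translocase, averaged 52.6 ± 1.47 CPM in HCT116oxR and 55.7 ± 1.90 CPM in HCT116, and its libraries did not overlap although it missed the threshold (-0.08, adjusted p = 0.346). UVSSA, which brings TFIIH to the stalled polymerase, stood at -0.04 with an interval of -0.16 to 0.07. ERCC8, the gene of the CSA ubiquitin ligase subunit, stood at 0.21 with the wide interval of -0.07 to 0.49, as its counts were few and its level ran from 12.4 to 15.6 CPM in HCT116oxR and from 9.146 to 13.62 CPM in HCT116.

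Of the 7 genes of the TFIIH core, 1 rose, 2 fell and 4 did not pass. Among all genes tested 22.3% were called higher and 21.8% lower. ERCC2, the XPD helicase that opens and scans the damaged strand, measured 83.2, 84.6 and 86.0 CPM in HCT116oxR against 71.2, 70.1 and 78.7 CPM in HCT116. It rose by 15.3% without overlap of the libraries (log2 fold change 0.21 ± 0.06, adjusted p = 0.00219). ERCC3, the XPB translocase of the same complex, measured 88.5, 85.7 and 84.9 CPM in HCT116oxR and 95.3, 96.3 and 99.1 CPM in HCT116, a fall of 10.8% (-0.17 ± 0.05, adjusted p = 0.00856). GTF2H4, the p52 subunit that anchors and stimulates XPB, measured 37.6, 41.8 and 39.8 CPM in HCT116oxR and 47.8, 48.5 and 51.2 CPM in HCT116. It fell by 19.2% (-0.31 ± 0.08, adjusted p = 3.64e-04).

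The other core subunits did not pass. GTF2H1 (p62) stood at -0.10, GTF2H3 (p34) at 0.06, GTF2H2 (p44, which stimulates XPD) at 0.08 and the small stabilising subunit GTF2H5 (p8) at 0.10. GTF2H2 has near-identical copies in the table, GTF2H2B at -0.04 and GTF2H2C at 0.04, with 22.1 and 22.8 CPM in HCT116oxR beside 23.5 CPM for GTF2H2. Reads of these copies may be split between the entries, so the GTF2H2 value is uncertain.

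In the kinase module of TFIIH, CDK7, the kinase, measured 49.8 to 54.1 CPM in HCT116oxR and 51.6 to 58.2 CPM in HCT116 (-0.06, interval -0.19 to 0.08). MNAT1, its assembly factor, stood at -0.02 with an interval of -0.31 to 0.27. CCNH, the cyclin partner of CDK7, was the member left out of the test, with 7, 10 and 8 counts in HCT116oxR and 2, 6 and 4 in HCT116. The ratio of its CPM was 2.00 with an exact 95% counting interval of 0.9696 to 4.38, which covers counting error only. RASA1 overlaps 80446 bases of the annotated CCNH span on the other strand, and how such reads were assigned is not given in the sources used here.

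At the verification step 3 of 4 members fell, beside 21.8% of all genes tested. RPA1, the large DNA-binding subunit, measured 45.1, 43.2 and 45.9 CPM in HCT116oxR, against 65.1, 60.7 and 66.3 CPM in HCT116. It fell by 30.2% (-0.52 ± 0.07, adjusted p = 1.25e-10). RPA2, the subunit phosphorylated in response to damage, measured 65.2, 66.0 and 65.6 CPM in HCT116oxR and 79.4, 84.3 and 78.1 CPM in HCT116 (-0.30 ± 0.06, adjusted p = 1.45e-05). Neither gene's libraries overlapped between the lines.

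The smallest subunit, RPA3, stood at -0.05 with an interval of -0.26 to 0.15 and overlapping libraries. XPA, the scaffold that checks the lesion and gathers the other factors, measured 17.6, 17.7 and 15.6 CPM in HCT116oxR and 22.1, 23.9 and 19.99 CPM in HCT116. It fell by 22.7%, again without overlap (-0.37 ± 0.11, adjusted p = 0.00471).

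**Figure D3:**
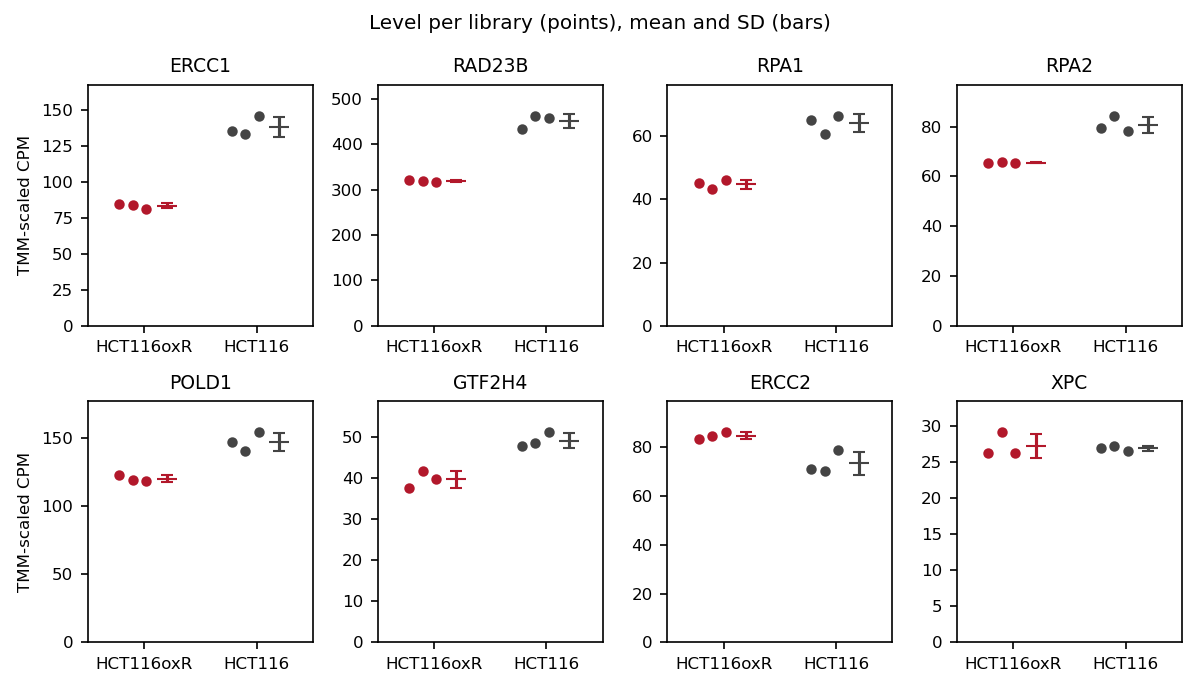
TMM-scaled CPM (vertical axes, from 0) of 8 members in each HCT116oxR and HCT116 library, with points for libraries and bars for mean and SD (n = 3 per line). ERCC1 sits at 81.6 to 85.0 CPM in HCT116oxR and 133 to 146 CPM in HCT116, and only XPC, in the last panel, overlaps between the lines.

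Of the 3 incision genes ERCC1 fell, and ERCC4 and ERCC5 did not pass, beside 21.8% of all genes tested that were called lower. ERCC1, the non-catalytic partner that positions the XPF nuclease, measured 85.0, 84.5 and 81.6 CPM in HCT116oxR against 136, 133 and 146 CPM in HCT116. The lowest HCT116 library was far above the highest HCT116oxR library, and the spread within either line was small, with an SD of 1.84 CPM in HCT116oxR and 6.81 CPM in HCT116. The fall of 0.73 ± 0.05 on the log2 scale (adjusted p = 8.00e-26), 1.65-fold, placed ERCC1 at the 7.01th percentile of the log2 fold changes of all genes tested.

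ERCC4, which encodes the XPF nuclease itself, had few counts, with 31, 62 and 42 counts in HCT116oxR and 47, 47 and 46 in HCT116. Its log2 fold change of -0.12 had an interval of -0.63 to 0.39. The log2 fold change of RPA1 (-0.52) lies inside that interval and that of the partner ERCC1 (-0.73) below it. The ERCC4 value was 0.11 without HCT116oxR replicate 1 and -0.40 without HCT116oxR replicate 2, so that its direction depended on 1 library. ERCC5, the XPG nuclease that cuts on the 3′ side, averaged 48.3 ± 3.55 CPM in HCT116oxR and 43.0 ± 3.34 CPM in HCT116 (0.16 ± 0.08, adjusted p = 0.0698). It passed as higher with upper quartile scaling (0.19) and without HCT116oxR replicate 1 or HCT116 replicate 3 (0.23 each). ERCC5 lies wholly within the read-through gene BIVM-ERCC5, itself at 0.00, and reads may be shared between these entries.

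Of the 7 genes of gap filling and sealing, 2 fell and 5 did not pass, beside 21.8% of all genes tested that were called lower. POLD1, the catalytic subunit of polymerase delta, measured 123, 119 and 119 CPM in HCT116oxR against 147, 141 and 154 CPM in HCT116, a fall of 18.3% without overlap (-0.29 ± 0.05, adjusted p = 5.99e-08). POLE, the catalytic subunit of polymerase epsilon, stood at 0.04 with an interval of -0.02 to 0.11, and its libraries overlapped. PCNA, the sliding clamp, averaged 304 ± 16.1 CPM in HCT116oxR and 321 ± 8.08 CPM in HCT116 (-0.08, adjusted p = 0.0745), and passed as lower without HCT116oxR replicate 1 (-0.11) or HCT116 replicate 3 (-0.10). RFC1, the large subunit of the clamp loader, stood at -0.09.

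LIG1, the ligase that seals gaps in replicating cells, measured 99.7, 108 and 106 CPM in HCT116oxR and 113, 119 and 110 CPM in HCT116. Its call was marginal (-0.12 ± 0.05, adjusted p = 0.0429) and was lost in 8 of the 13 alternative settings. LIG3, the ligase that acts with XRCC1 and works in repair outside S phase too, averaged 99.2 ± 2.62 CPM in HCT116oxR and 99.1 ± 0.448 CPM in HCT116. The interval of its log2 fold change was -0.10 to 0.10. XRCC1, the scaffold of LIG3, stood at -0.18 (adjusted p = 0.101) and passed as lower without HCT116oxR replicate 3 (-0.24). RFFL and the transcript named RAD51L3-RFFL, which overlap LIG3 on the other strand, fell by 0.69 ± 0.11 and 0.60 ± 0.07.

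For 6 pairs of partners the ratio was compared between the lines, each taken within a library, where depth cancels. The exact permutation test of 3 against 3 libraries cannot give a p below 0.10. No ratio could therefore pass the threshold of 0.05, whatever its values, and the ratios are given as description. The ratio of XPC over RAD23B averaged -3.55 ± 0.09 in HCT116oxR and -4.07 ± 0.05 in HCT116 (log2 of the CPM ratio, SD, n = 3 each), 1.43-fold higher in HCT116oxR. RPA2 over RPA1 averaged 0.55 ± 0.05 in HCT116oxR and 0.33 ± 0.12 in HCT116, 1.17-fold higher. The libraries of the lines did not overlap for these ratios, nor for CCNH over CDK7, which rests on the few CCNH counts. For all 3 the 2-sided exact permutation p was 0.10, the smallest that 3 against 3 allows (0.20 after adjustment over the 6 ratios).

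ERCC1 over ERCC4 averaged 4.66 ± 0.52 in HCT116oxR and 5.21 ± 0.12 in HCT116 and overlapped (exact permutation p = 0.20, adjusted 0.24). The difference of -0.55 was -0.83 without HCT116oxR replicate 1 and -0.31 without HCT116oxR replicate 2. LIG1 over LIG3 averaged 0.07 ± 0.08 in HCT116oxR and 0.20 ± 0.06 in HCT116 (exact permutation p = 0.20, adjusted 0.24). DDB2 over DDB1 averaged -2.51 ± 0.09 in HCT116oxR and -2.55 ± 0.08 in HCT116 (exact permutation p = 0.60, adjusted 0.60). These are differences between ratios of CPM and do not compare the amounts of the partners, since CPM takes no account of transcript length.

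The place of each member in the genome was then considered. For each member the median log2 fold change of the other tested genes within 5 Mb was taken, measured between the lower ends of the annotated spans. It was below -0.2 for 3 of the 11 members that fell and for none of the 20 that did not pass or of ERCC2. RFC1, which did not pass, lay close to that cut at -0.19 (SD over the HCT116oxR cultures 0.07), so the split depends on where the cut is placed. That split held at 5 Mb and not in narrower windows: within 2 Mb the medians of RFC1 and XRCC1, which did not pass, were -0.29 and -0.31, and within 1 Mb, a window added after the data were seen, they were -0.34 and -0.21, and that of ERCC2 was -0.43. RAD23B (chr9:107283279-107332194) had 42 such neighbours with a median of -0.52, and 64.3% of them were lower, beside -0.50 for RAD23B itself. The median was -1.10 over the 6 genes within 1 Mb and -0.36 over the 105 within 10 Mb. RPA1 (chr17:1830005-1900082) had 115 neighbours with a median of -0.44, of which 62.6% were lower and 6.96% higher, and the median was -0.28 within 10 Mb. XPA (chr9:97654398-97697340) had 86 neighbours with a median of -0.26, of which 43.0% were lower, and the median was -0.41 over the 20 within 1 Mb. XPA and RAD23B lie within 10 Mb of each other on chromosome 9, so they are not independent cases. The part that these chromosome stretches have in the falls of RAD23B, RPA1 and XPA was not tested.

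The other 8 members that fell had 5 Mb neighbourhoods with medians between -0.11 and 0.04. CETN2 on the X chromosome lay 0.39 below the median of its neighbours (log2), RPA2 on chromosome 1 0.34 below, GTF2H4 on chromosome 6 0.33 below and POLD1 on chromosome 19 0.24 below. ERCC3 on chromosome 2 lay 0.18 below and XAB2 on chromosome 19 0.11 below, while LIG1 lay 0.02 below a median of -0.10.

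ERCC1 (chr19:45407334-45451547) and ERCC2 (chr19:45349837-45370573) are close neighbours and moved in opposite directions. Within 5 Mb the 257 neighbours of ERCC1 had a median of -0.11, 0.62 above ERCC1, and 9.73% of them were at or below its value. Within 1 Mb the 50 neighbours of ERCC1 had a median of -0.39, and 48.0% of them were lower and 16.0% higher. ERCC2, at 0.21, lay above that median. PPP1R13L, which lies between them and was named after its value was seen, stood at -0.16 (adjusted p = 0.0677). CD3EAP, now called POLR1G, a subunit gene of RNA polymerase I that overlaps ERCC1 by 3404 bases on the other strand, fell as well.

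CD3EAP averaged 31.7 ± 2.58 CPM in HCT116oxR and 42.1 ± 1.97 CPM in HCT116 (SD, n = 3 each), a log2 fold change of -0.41 ± 0.08 (adjusted p = 1.70e-05). Without knowledge of strand use the reads in the overlap cannot be assigned between ERCC1 and CD3EAP. KLC3, which overlaps ERCC2, stood at 0.01. Overlap with another annotated gene was common, touching 19 of the 33 members, and for 13 of them the partner was itself tested. Among the partners that did not pass were NCBP1 (over XPA, 0.28), UMAD1 (RPA3, -0.23), RASA1 (CCNH, 0.23), PGBD3 (ERCC6, 0.07) and CCDC125 (CDK7, -0.09). The non-coding and pseudogene partners that did not pass were MAD2L1P1 (MNAT1, -0.46), OSTCP7 (LIG3, -0.19), RNU6-32P (RFC1, -0.17), GNL3LP1 (ERCC8, -0.16), LOC105376577 (GTF2H1, 0.08) and LOC644285 (CCNH, 0.02).

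**Figure D4:**
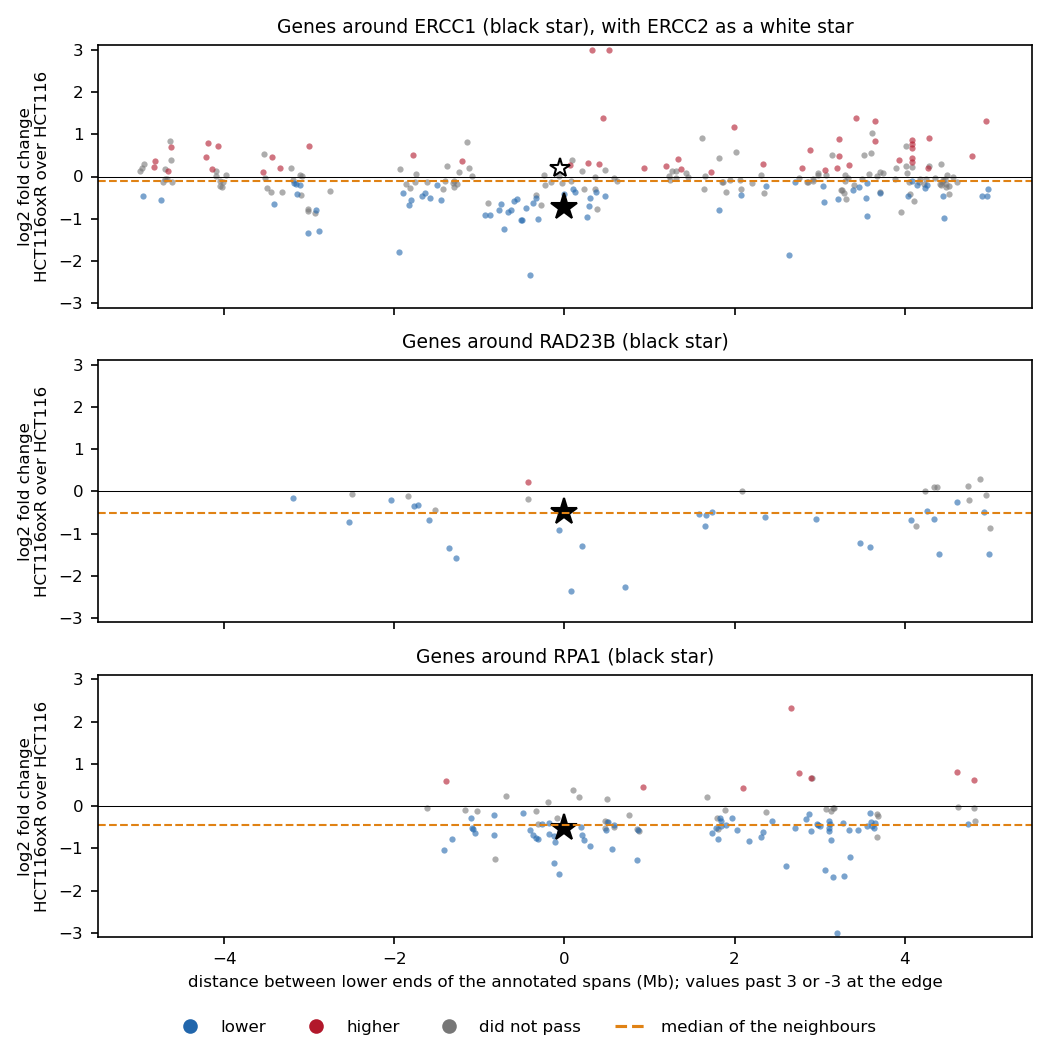
Log2 fold change of HCT116oxR over HCT116 (vertical axes, values past 3 or -3 drawn at the edge) of tested genes by the distance of the lower end of their span from that of ERCC1, RAD23B and RPA1 (horizontal axis, Mb), coloured by call, with stars for the members named and the neighbours' median as a dashed line. RAD23B at -0.50 and RPA1 at -0.52 sit close to the medians of -0.52 and -0.44, while ERCC1 sits below and ERCC2 above the median of -0.11.

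The 4 companion lists place the members beside related genes, and their counts are to be read beside the 22.3% of all genes tested that were called higher and the 21.8% called lower. Of 32 accessory genes of excision repair, such as further polymerase and clamp loader subunits, the COP9 signalosome and chromatin factors, 2 rose, 9 fell and the other 21 missed the threshold, and the median log2 fold change was -0.02. POLE3, a histone-fold subunit of polymerase epsilon, averaged 109 ± 5.70 CPM in HCT116oxR and 152 ± 1.46 CPM in HCT116 (-0.49 ± 0.05). STK19, a factor of transcription-coupled repair, fell by 0.61 ± 0.13, and RFC5, a clamp loader subunit, by 0.31 ± 0.05.

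Of 23 replication fork genes, which act with PCNA, RPA, POLD1 and LIG1 in S phase, 13 fell and 10 did not pass, beside 21.8% of all genes called lower, and the median was -0.13. The largest falls were those of POLA2, a subunit of the primase-polymerase (-0.37 ± 0.06), GINS3, of the replicative helicase (-0.32 ± 0.09), and MCM10, which helps to start forks (-0.30 ± 0.05).

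The p53 target list, to which DDB2, XPC and PCNA are also known to belong in human cells, held 18 tested genes, of which 7 fell and 3 rose, with a median of -0.18. TP53I3 rose by 1.40 ± 0.17, whereas TNFRSF10B fell by 1.06 ± 0.03 and SESN2 by 0.90 ± 0.06. XPC, DDB2 and PCNA stood at 0.02, 0.10 and -0.08. Of 12 core subunits of RNA polymerase II 3 rose and 1 fell, with a median of -0.02, and the 3 of 12 is near the 22.3% of all genes called higher. POLR2K (0.42 ± 0.08) and POLR2A (0.27 ± 0.03) rose and POLR2L fell by 0.32 ± 0.10.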

How the data were processed

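Total RNA was sequenced from 3 cultures of HCT116oxR and 3 of HCT116. The values deposited by the authors are raw counts per gene, aligned to GRCh38 with HISAT2 per the submitters' processing notes. Which program counted the reads, on which annotation, whether strand was used and how reads matching several places were handled is not given in the sources used here. The small RNA table was not used here.

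The whole table was fitted in R 4.3.3 with edgeR 4.0.16 (quasi-likelihood F test with robust dispersion, TMM scaling, filterByExpr with a minimum count of 10 and a minimum total of 15, 2-sided, Benjamini-Hochberg adjustment over all genes tested, threshold 0.05). The fit had no term for replicate number. Standard errors (SE) were derived by dividing each log2 fold change by the root of its F statistic, and intervals are 1.96 SE on either side, both approximate. The fit was tested on simulated data. Its first pass criterion, a high recovery at every size of change, was not met for changes of 1.5-fold, the smaller size simulated. It was then replaced by accuracy of the fold, the share of false calls and recovery among genes with many counts. A gene with few counts that did not pass may therefore have changed by 1.5-fold, and any gene that did not pass may have changed by less. Levels are CPM on TMM-scaled library sizes. Totals were 11950069 to 13558077 counts per library, so counting error was small for most members. Positions and promoters came from RefSeq on GRCh38.p14, where 16836 of the 17511 tested genes were matched. Alternatives were DESeq2 1.42.0, limma-voom 3.58.1, other scalings and filters, a replicate block, and leaving out each library.

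All members were described, as were the tested genes overlapping them and up to 3 genes past the threshold with the largest change from each companion list. The members, the lists and the rule were chosen with earlier results of these data known.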

Additional observations from a re-analysis of the deposited data

How the results depend on the processing

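Of the 12 members called, 10 kept their call in all 13 alternative settings chosen with the tests, and no member changed the direction of a call. LIG1 lost its call in 8 of them and CETN2 in 1. The number of members called lower was 9 to 12 throughout. The number called higher was 3 with upper quartile scaling, which added ERCC5 and DDB1, and 1 to 2 when each library was left out in turn, with 2 reached without HCT116oxR replicate 1 and without HCT116 replicate 3, where ERCC5 was added. Among the 20 tested members that overlap no tested gene, an alternative added after seeing the data, edgeR called 0 higher and 9 lower, since ERCC2 overlaps KLC3. The members' median log2 fold change was -0.102 to -0.0466 when each library was left out, with -0.0466 reached without HCT116 replicate 1. DESeq2 and limma-voom each called 1 member higher and 11 lower. With the replicate number as a block 1 was higher and 10 lower, as LIG1 reached an adjusted p of 0.0555. Correlations of same-numbered libraries were between -0.0254 and 0.000544, so no variation shared by number was seen. These values cannot tell whether same-numbered cultures were handled together. Neighbour medians moved by more than the spread between cultures in 60 of 99 cases when the window was 1, 2 or 10 Mb and that of RAD23B was -1.10, -0.57 and -0.36 in these windows. The sign of the ERCC4 log2 fold change turned without HCT116oxR replicate 1. Over the alternative settings the values of other uncalled members crossed 0 too. These were MNAT1 (-0.11 to 0.14), RPA3 (-0.16 to 0.05), XPC (-0.03 to 0.04) and LIG3 (-0.02 to 0.03). The cause of these turns was not tested. Depth limits ERCC4 and CCNH.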
